A study of Mus musculus with 35 samples.

Results

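The genes described here are 7 that carry or shape the response of the brain to sex steroids, oxytocin and vasopressin, taken by symbol from 52636 genes in the count files. They are Esr1 and Esr2, the nuclear estrogen receptors alpha and beta, Gper1, the membrane estrogen receptor, Cyp19a1, the aromatase that makes estrogen from androgen, Pgr, the progesterone receptor, Oxtr, the oxytocin receptor, and Avpr1a, the vasopressin receptor 1a. They were chosen by name and not by a rule on measured values, but with earlier results of these data known. RNA was measured in the basolateral amygdala, cut out by laser capture, of 19 female mice that were food restricted and trained for a cognitive judgment bias test, which asks how an animal responds to an ambiguous cue. C57BL/6J is an inbred strain and B6D2F1N is a first-generation hybrid with a C57BL/6 parent. Training began on postnatal day (PND) 70 and took 37 to 90 days, and the test itself ran over 5 days. Housing was standard or, from PND 77, enriched with 1 h a day in a playground. Standard housing held 4 C57BL/6J and 5 B6D2F1N mice, and enriched housing held 4 and 6. The files used here hold a posterior library of every mouse and an anterior library of 16, with 2 enriched C57BL/6J, 5 enriched B6D2F1N and all standard mice among the latter.

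Steroid hormones enter the cell and bind receptors of the nuclear family, which then attach to DNA and change transcription, whereas Gper1, Oxtr and Avpr1a are G-protein-coupled receptors at membranes that signal within seconds. Estrogen is known to raise Pgr and Oxtr in several brain regions, and neurons with aromatase can make estrogen locally. In the rodent amygdala, estrogen receptor alpha and aromatase are best known from the medial nucleus, and oxytocin receptors from the central, medial and basolateral nuclei. The estrous stage of these mice is not given in the sources used here.

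The 35 libraries held 16938534 to 27352623 counts on genes, and no library pair was identical. In both libraries of B6D2F1N standard mouse 1 the Xist count was 0, against 54.4 to 206 CPM (counts per 1000000, after TMM normalisation) in the others, and the summed counts of 4 Y-linked genes were at most 1 in every library, so results that include this mouse are given with and without it where it changes a call. Portions carry the names in the labels. The study's methods give the range nearer to bregma for the posterior portion, the reverse of the anatomical order, and if the names were exchanged every portion difference below would change sign. Choroid plexus markers moved with portion. Their summed level ran from 5.78 to 930 CPM in anterior and from 117 to 14200 CPM in posterior libraries, and 5 of 5 were higher in posterior over both strains. Of the excitatory neuron markers, 3 of 5 were lower and 1 was higher in posterior in either strain. Markers of basolateral excitatory neurons were present in every library, with summed levels of 379 to 1170 CPM in anterior and 458 to 1793 CPM in posterior and none at 0 throughout a portion. A gene was called when its Benjamini-Hochberg adjusted p was at most 0.05 in edgeR's quasi-likelihood test. In bulk tissue, fewer cells of a type and less RNA per cell cannot be told apart.

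Levels between genes were compared as CPM per kilobase of exon, on the GENCODE M21 annotation of GRCm38, and within each portion because the order differed between them. Neighbours in the order of medians were tested with two-sided sign-flip permutation tests over mice, on the log2 scale with 0.01 added, and p-values were adjusted over the 12 pairs. In anterior, Pgr (chr9:8899833-8968611, plus strand) at a median of 2.28 CPM per kilobase and Gper1 (chr5:139423151-139427800, plus strand) at 2.00 led and did not differ beyond their spread (adjusted p = 0.523, permutation test). Oxtr (chr6:112473683-112489943, minus strand) followed at 0.993, below Gper1 in 13 of 16 mice (mean difference 0.97, adjusted p = 0.0202, permutation test). Esr1 (chr10:4611593-5005614, plus strand) was at 0.377, below Oxtr in 13 of 16 mice (1.36, adjusted p = 0.0163, permutation test). This order depends on the exon lengths used, 13661 bases for Esr1 and 4790 for Oxtr. In CPM not divided by length, their anterior medians were 5.15 for Esr1 and 4.75 for Oxtr.

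Esr2 (chr12:76120419-76177259, minus strand) had an anterior median of 0.272, and Avpr1a (chr10:122448499-122453452, plus strand) and Cyp19a1 (chr9:54165937-54268110, minus strand) had medians of 0. None of these 3 differed from its upper neighbour beyond the spread (adjusted p of 0.0608 to 0.838, permutation test). In posterior Oxtr led at 2.47 CPM per kilobase, above Gper1 at 1.61 in 15 of 19 mice (0.756, adjusted p = 0.0202, permutation test). In CPM not divided by length, the posterior median of Esr1, 18.2, was above that of Oxtr, 11.8, so this lead too depends on the lengths. Gper1, Pgr at 1.35 and Esr1 at 1.33 did not differ from their neighbours beyond the spread (adjusted p = 0.591 and 0.325, permutation test). Esr1 was above Cyp19a1, at 0.246, in 14 of 19 mice (2.81, adjusted p = 0.00672, permutation test), and Cyp19a1, Avpr1a at 0.241 and Esr2 at 0.069 did not differ in turn (adjusted p = 0.591 and 0.184, permutation test).

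**Figure D1:**
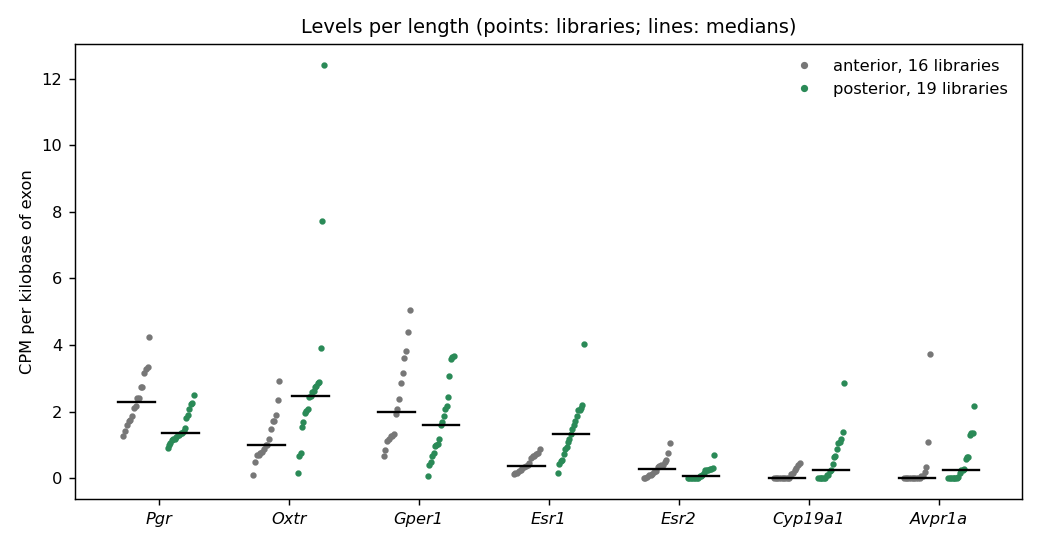
CPM per kilobase of exon for the 7 genes, ordered by median over the 35 libraries, with anterior libraries in grey, posterior libraries in green and black lines at the medians. Pgr and Gper1 have the upper medians in anterior (2.28 and 2.00) and Oxtr in posterior (2.47), and most libraries of Esr2, Cyp19a1 and Avpr1a lie near 0.

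Esr1, Gper1, Pgr and Oxtr had counts in 35 of 35 libraries. Cyp19a1 had none in 14, Avpr1a none in 16 and Esr2 none in 9 libraries. A count of 0 allows up to 3 counts, or 0.109 to 0.173 CPM depending on the library, so at this depth absence was not shown, and this limit covers counting error only. Gper1 lies within 3110082I17Rik and Avpr1a within Gm48877, each on the opposite strand, and Esr2 overlaps the pseudogene Gm7862 on its own strand. The strand setting of the counting is not given in the sources used here, so reads of these neighbours may be shared.

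The portions were compared within each mouse. In C57BL/6J, where 6 mice gave both portions, Esr1 and Oxtr were both higher in posterior, by about the same amount. Of 25751 genes tested in that strain 3.64% were called, and of the 7 genes 2 were. In the 10 B6D2F1N mice 4.00% of 27761 genes were called, and 0 of the 7 were (edgeR, 3 at an unadjusted p under 0.05, and 0 by DESeq2). Over all genes an unadjusted p under 0.05 was reached by 13.5% in C57BL/6J and by 15.5% in B6D2F1N (edgeR).

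Esr1, the receptor that mediates most nuclear actions of estrogen, ran from 1.67 to 12.1 CPM with a median of 3.21 in the anterior libraries of the 6 paired C57BL/6J mice. In posterior it ran from 12.1 to 29.0 CPM with a median of 24.1. The 2 ranges did not overlap, although the highest anterior value, 12.08 CPM, lay just under the lowest posterior one, 12.12 CPM, and Esr1 was higher in posterior in 6 of 6 mice. The share of all genes without overlap between these portions was not counted. The fitted difference was 2.28 ± 0.372 on the log2 scale (SE, derived from the test's F statistic), a 4.85-fold higher level, with an adjusted p of 0.00118 (edgeR, Benjamini-Hochberg). It stayed called without any single mouse, at 1.94 to 2.56. Over the 10 paired B6D2F1N mice Esr1 ran from 2.28 to 10.5 CPM in anterior and from 2.13 to 55.0 CPM in posterior, with medians of 5.76 and 15.5. These ranges overlapped, 7 of 10 mice were higher in posterior, and the difference of 1.27 ± 0.473 was not called (adjusted p = 0.171, edgeR).

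In B6D2F1N enriched mouse 4 the order was turned. Its Esr1 was 10.5 CPM in anterior and 2.13 in posterior, and Oxtr (9.09 and 0.741), Gper1 (8.05 and 0.185) and Cyp19a1 (2.13 and 0) were also lower in posterior. Its posterior library still had 1756 CPM of summed choroid plexus markers, within the range of that portion, and the lowest summed excitatory neuron markers of the posterior libraries, 1087 CPM. Without this mouse Esr1 was called in B6D2F1N at 1.59 (adjusted p = 0.0359, edgeR). Cyp19a1 was then called too, at 4.21 (adjusted p = 0.0485, edgeR). Of the 10 fits that each left out 1 mouse, this was the only 1 to call either gene. The adjusted p reached 0.321 for Esr1 and 0.307 for Cyp19a1 in the others (edgeR). The mouse is described here because its values go the other way, so these calls are no separate support. Without mouse as a block in the fit, Esr1 was called at 1.54 (adjusted p = 0.0254, edgeR).

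Oxtr, the receptor for oxytocin, ran from 0.417 to 8.30 CPM with a median of 3.81 in anterior in the paired C57BL/6J mice. In posterior it ran from 10.0 to 59.5 CPM with a median of 12.8. These ranges did not overlap either, again without a share over all genes to set beside it, and 6 of 6 mice were higher in posterior. The difference was 2.27 ± 0.456 (adjusted p = 0.00630, edgeR), a 4.81-fold higher level, and it stayed called without any single mouse, at 1.89 to 2.64. In B6D2F1N, Oxtr ran from 2.33 to 14.0 CPM in anterior and from 0.741 to 36.9 in posterior, with 7 of 10 mice higher in posterior and a difference of 0.58 ± 0.448 that was not called (adjusted p = 0.580, edgeR). The difference between strains in this portion effect was -1.71 ± 0.718 for Oxtr (unadjusted p = 0.0243) and did not pass (adjusted p = 1.0, edgeR). That of Esr1 did not pass either (adjusted p = 1.0, edgeR), so the strains are not shown to differ.

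**Figure D2:**
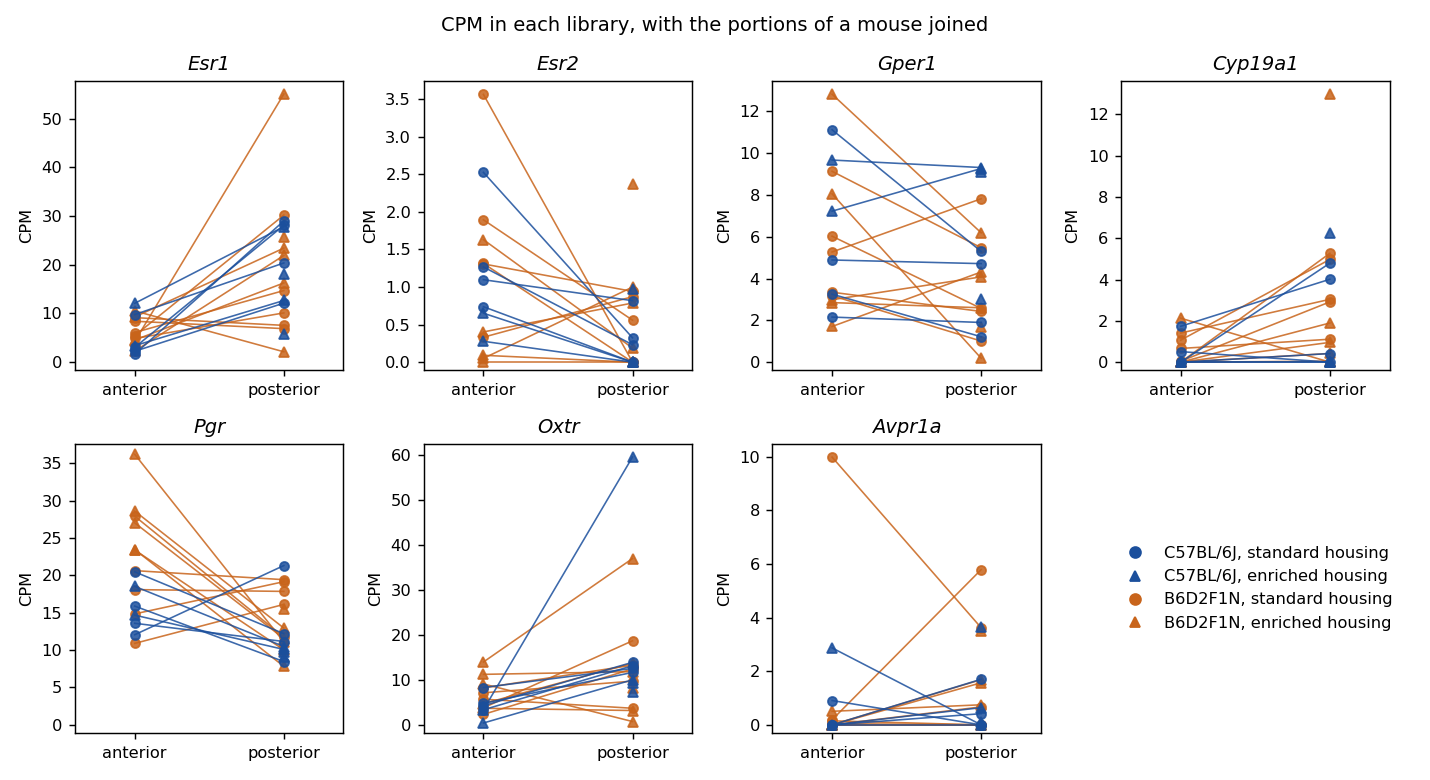
CPM of each gene in every library (vertical axis, own scale per panel) by portion, with a line joining the portions of 1 mouse, color for strain and marker for housing. Esr1 and Oxtr lines of C57BL/6J all rise to posterior, and in B6D2F1N the lines of either gene go both ways.

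Among the markers of other cell types in the same 6 C57BL/6J mice, 4 of 5 choroid plexus markers were called higher in posterior, and their summed level ran from 5.78 to 25.7 CPM in anterior and from 117 to 1464 in posterior. Of the ependymal markers 2 of 4 were called higher. Summed meningeal fibroblast markers ran from 38.5 to 64.6 CPM in anterior and from 833 to 1750 in posterior without overlap, and 1 of 5, Dcn, was called higher. Of the astrocyte markers 3 of 6 were called higher (Gfap, Slc1a3 and Gja1), with sums of 3980 to 6561 and 3687 to 7518 CPM. Of the 5 basolateral excitatory neuron markers Lypd1 and Cdh13 were called higher and Rspo2 lower (sums of 540 to 966 and 942 to 1793 CPM). Of the 5 general excitatory neuron markers Slc17a7, Neurod6 and Tbr1 were called lower and Slc17a6 higher (sums of 2421 to 4501 and 1187 to 5545 CPM). Of the 5 central amygdala markers Nts was called higher (58.5 to 130 and 89.7 to 162 CPM), and of the 7 striatal or intercalated markers Drd1 was called lower (89.8 to 260 and 89.8 to 371 CPM). Of 5 markers of medial amygdala and hypothalamic-type neurons, where Esr1 is abundant, 4 could be tested and 0 were called by edgeR or DESeq2 (2 at an unadjusted p under 0.05), with summed levels of 3.03 to 18.6 CPM in anterior and 8.80 to 35.5 in posterior. Lhx5, Otp and Sim1 of that list were at 0 in all 6 posterior libraries. By edgeR 0 of the 7 oligodendrocyte, 6 microglia, 5 endothelial cell and 5 inhibitory neuron markers were called, with 0, 1, 0 and 1 at an unadjusted p under 0.05 and 0, 1, 0 and 0 called by DESeq2. The part of these cells in the differences of Esr1 and Oxtr was not tested.

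Esr2, the beta receptor, had lower values in posterior but was not called. In the 6 paired C57BL/6J mice it ran from 0.278 to 2.53 CPM in anterior and from 0 to 0.818 in posterior, and 0 of 6 mice were higher in posterior. The fitted difference was -3.40 ± 1.22 (adjusted p = 0.167, edgeR), a value that depends on the prior count because several libraries are at 0. In B6D2F1N it was -1.44 ± 1.28 (adjusted p = 0.642, edgeR), with 3 of 10 mice higher in posterior. Esr1 per kilobase exceeded Esr2 in 10 of 16 anterior and in 18 of 19 posterior libraries, counts that depend on the exon lengths used (13661 and 3368 bases).

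Pgr, which estrogen is known to induce in parts of the brain, averaged lower in posterior in both strains. In C57BL/6J it averaged 15.9 ± 3.15 CPM in anterior and 12.3 ± 4.595 in posterior (SD, n = 6), a difference of -0.42 ± 0.271 that was not called (adjusted p = 0.582, edgeR). In B6D2F1N it averaged 23.1 ± 7.37 and 13.8 ± 4.08 CPM (SD, n = 10), was lower in posterior in 8 of 10 mice, and differed by -0.73 ± 0.247 (adjusted p = 0.118, edgeR). Without B6D2F1N standard mouse 5 it was called, at -0.88 (adjusted p = 0.0464, edgeR), and without mouse as a block it was called at -0.74 (adjusted p = 0.0403, edgeR). Of the 10 fits that each left out 1 mouse, that without mouse 5 was the only 1 to call Pgr. Its adjusted p reached 0.285 in the others (edgeR).

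Cyp19a1, the aromatase, was near 0 in anterior. Its 10 paired B6D2F1N libraries ran from 0 to 2.13 CPM with a median of 0.0237 in anterior and from 0 to 5.27 with a median of 1.504 in posterior. It was higher in posterior in 9 of 10 mice, with a difference of 3.50 ± 1.32 (adjusted p = 0.177, edgeR). In C57BL/6J, 3 of 6 mice were higher in posterior and the difference was 2.102 ± 1.89 (adjusted p = 0.735, edgeR). The highest value of all, 13.0 CPM, came from the posterior library of B6D2F1N enriched mouse 5, whose anterior portion was not analysed here. Since so many libraries are at 0, these fitted values also depend on the prior count.

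Gper1 differed little between portions for its spread. It averaged 6.39 ± 3.57 CPM in anterior and 5.29 ± 3.48 in posterior in C57BL/6J (SD, n = 6), with a difference of -0.39 ± 0.374 (adjusted p = 0.756, edgeR). In B6D2F1N the averages were 5.54 ± 3.52 and 3.67 ± 2.37 CPM (SD, n = 10), and the difference was -0.64 ± 0.499 (adjusted p = 0.581, edgeR). Avpr1a was scattered, with 0 in many libraries and single high ones, among them 9.99 CPM in the anterior library of B6D2F1N standard mouse 3. Its difference was 1.95 ± 2.83 in C57BL/6J and 2.17 ± 1.53 in B6D2F1N, neither called (adjusted p = 0.870 and 0.539, edgeR).

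With both strains in 1 fit over 16 mice, added after the single-strain results were seen, 8.60% of 29437 genes and 2 of the 7 genes were called. Esr1 was higher in posterior by 1.68 ± 0.359 (13 of 16 mice, adjusted p = 0.00245, edgeR) and kept its call without any single mouse. Pgr was lower by 0.60 on the log2 scale, with a fitted value of -0.60 ± 0.185 (13 of 16 mice lower, adjusted p = 0.0394, edgeR). It was no longer called without B6D2F1N standard mouse 1, the mouse with 0 Xist counts (-0.56, adjusted p = 0.0791, edgeR), and was lost without 10 of the 16 mice in turn. Oxtr was at 1.21 ± 0.392 (13 of 16 mice higher, adjusted p = 0.0528, edgeR) and was called without 4 of the 16 mice in turn.

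**Figure D3:**
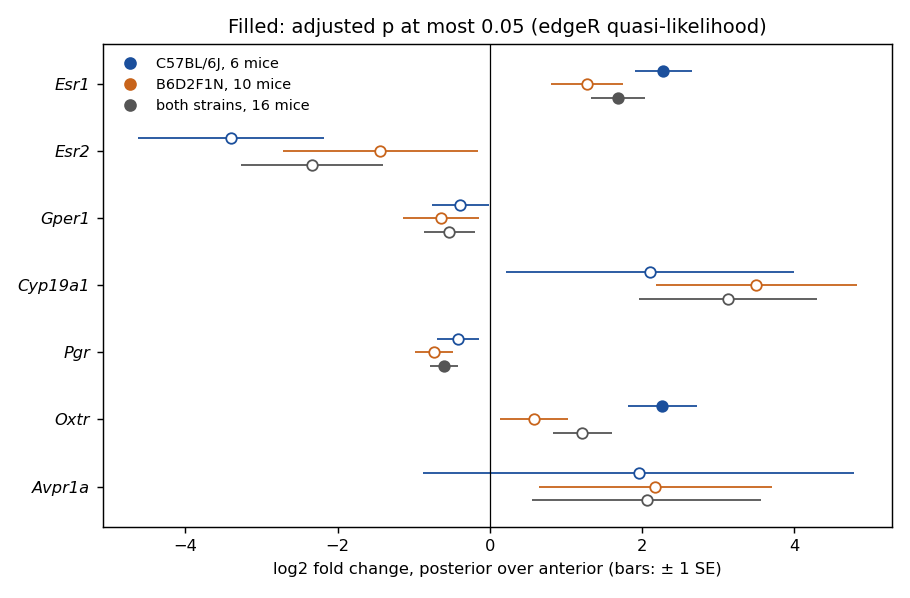
Fitted log2 fold change of posterior over anterior for the 7 genes (horizontal axis, bars of 1 SE) in C57BL/6J, B6D2F1N and both strains, filled where called. Esr1 and Oxtr in C57BL/6J, and Esr1 and Pgr over both strains, are filled, and Esr2, Cyp19a1 and Avpr1a have the widest bars.

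Because Esr1 and Oxtr were the 2 genes called together, the 250 bases upstream of a RefSeq start site on GRCm38.p6 are shown for each. They are in the 5′ to 3′ direction of each gene. Of the 7 genes, 7 had an entry. Capitals mark GGTCA or its reverse complement TGACC, the half-site letters of the estrogen response element. They occur in 35.2% of the 32851 upstream windows of this length, and the full palindrome, GGTCA and TGACC with 3 bases between them, which also counts as 2 half-sites, in 0.0639%. The Oxtr window (chr6:112489826-112490075, minus strand) holds 1 half-site, whose first base is 97 bases before the start. The first Esr1 window (chr10:4611739-4611988, plus strand) holds none, and none of the windows of the 7 genes holds the palindrome. Of the 10 windows of the 7 genes 4 hold a half-site, against 35.2% of all windows. They belong to Oxtr, Esr2 and Cyp19a1, and the Pgr window holds none, so a half-site is not particular to Oxtr. RefSeq start sites differ here from the GENCODE M21 gene coordinates given above. By GENCODE, where Esr1 begins at 4611593, the whole Esr1 window shown lies inside the gene. The part of the Oxtr window with the half-site also lies inside its gene, which GENCODE begins at 112489943. These letters describe the sequence and say nothing on binding in these mice.
Oxtr: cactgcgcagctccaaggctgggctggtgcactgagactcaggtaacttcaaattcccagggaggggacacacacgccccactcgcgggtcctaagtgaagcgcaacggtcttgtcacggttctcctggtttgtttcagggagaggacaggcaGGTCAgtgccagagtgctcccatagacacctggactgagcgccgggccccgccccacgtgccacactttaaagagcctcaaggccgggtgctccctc
Esr1: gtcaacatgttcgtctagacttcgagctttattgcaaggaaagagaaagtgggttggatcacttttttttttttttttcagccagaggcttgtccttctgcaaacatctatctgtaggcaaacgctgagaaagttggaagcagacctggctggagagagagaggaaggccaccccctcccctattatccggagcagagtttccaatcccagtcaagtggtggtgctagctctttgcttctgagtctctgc

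The strains were compared within each housing and portion. Of the 7 genes 0 were called in any of these 4 comparisons (edgeR, adjusted p of 0.557 or more). Over all genes 0.370% were called in standard anterior, 0.373% in standard posterior, 0.0639% in enriched anterior and 0.394% in enriched posterior. At an unadjusted p under 0.05 there were 2, Oxtr and Pgr in enriched anterior, where C57BL/6J has 2 libraries. Over all genes 4.33% reached it there, and 9.00%, 10.3% and 9.11% did in standard anterior, standard posterior and enriched posterior (edgeR). DESeq2 called 0 of the 7 as well. Oxtr was at 0.417 and 3.36 CPM in those 2 C57BL/6J libraries and at 4.71, 11.2, 14.0, 9.09 and 3.69 CPM in the 5 of B6D2F1N, so the ranges did not overlap, with a difference of 2.21 ± 0.918 (adjusted p = 1.0, edgeR). Pgr was at 18.5 and 14.7 CPM against 23.4, 27.0, 36.2, 23.5 and 28.6, again without overlap, with a difference of 0.76 ± 0.338 (adjusted p = 1.0, edgeR). With only 2 libraries of C57BL/6J, ranges can easily fall apart. The share of all genes without overlap was not counted.

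Housing was compared within each strain and portion. Again 0 of the 7 genes were called (edgeR, adjusted p of 0.480 or more). DESeq2 called 0 of the 7 too. Over all genes the share called was 0.0163% in C57BL/6J posterior and 0 in the other 3 comparisons (edgeR). In C57BL/6J anterior, B6D2F1N anterior and B6D2F1N posterior an unadjusted p under 0.05 was reached by 1418, 1553 and 1716 genes (6.20%, 6.30% and 6.59%), and DESeq2 called 100, 8 and 13. In C57BL/6J posterior 2515 genes (10.3%) reached it, and DESeq2 called 319. At an unadjusted p under 0.05 there were 4 gene results, of Gper1, Avpr1a and, in both B6D2F1N portions, Pgr. Esr2 in C57BL/6J anterior was not among them, although its ranges did not overlap. It was at 0.278 and 0.651 CPM in the 2 enriched libraries and at 0.738 to 2.53 CPM in the 4 standard ones. Its difference was -1.61 ± 1.11 (adjusted p = 0.852, edgeR), and the share of all genes without overlap was not counted.

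In C57BL/6J posterior Gper1 was at 1.90, 1.22, 4.72 and 5.30 CPM in standard and at 9.27, 3.01, 9.31 and 9.09 CPM in enriched housing. Enriched values were high in 3 of 4 mice, the fourth lay within the standard range, and the difference was 1.21 ± 0.542 (adjusted p = 0.480, edgeR). In the same libraries the summed oligodendrocyte markers ran from 8148 to 12770 CPM in standard and from 18110 to 28340 CPM in enriched housing without overlap. Their median difference was 1.303 against 0.02 over all genes, 1 of 7, Mbp, was called higher, and their part was not tested.

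Pgr ran in opposite directions in the portions of B6D2F1N. In anterior it was at 27.9, 20.6, 14.9, 18.1 and 10.9 CPM in standard and at 23.4, 27.0, 36.2, 23.5 and 28.6 CPM in enriched housing, a difference of 0.58 ± 0.268 (adjusted p = 0.770, edgeR). In posterior it was at 11.7, 19.4, 19.2, 17.9 and 16.1 CPM in standard housing, and between 7.82 and 15.5 CPM with a median of 11.3 in the 6 enriched mice, a difference of -0.57 ± 0.234 (adjusted p = 0.752, edgeR). Both pairs of ranges overlapped. Tested over both strains, the difference of the portion effect between housings was -1.01 ± 0.321 for Pgr, with an unadjusted p of 0.00397 and an adjusted p of 1.0 (edgeR). In that test 0 of 29437 genes were called (edgeR, 968 at an unadjusted p under 0.05, 3 called by DESeq2).

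Avpr1a in B6D2F1N anterior was at 0, 0.190, 9.99, 0.0475 and 0.152 CPM in standard housing. In enriched housing it was at 0.507 CPM in 1 mouse and at 0 in the other 4. The difference of -4.31 ± 1.94 (adjusted p = 0.770, edgeR) rests on standard mouse 3, and without it the value was 0.08. The difference of the housing effect between strains gave no call in anterior among 26353 genes (edgeR, 0 called, 1576 at an unadjusted p under 0.05, 11 called by DESeq2). Oxtr, at 2.13 ± 0.936, and Avpr1a, at -6.99 ± 3.08, had unadjusted p under 0.05 there (adjusted p = 0.831 for either, edgeR). In posterior 0 of the 7 genes reached an unadjusted p under 0.05, and 0 of 27871 genes were called (edgeR, 2335 at an unadjusted p under 0.05, 37 by DESeq2).

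**Figure D4:**
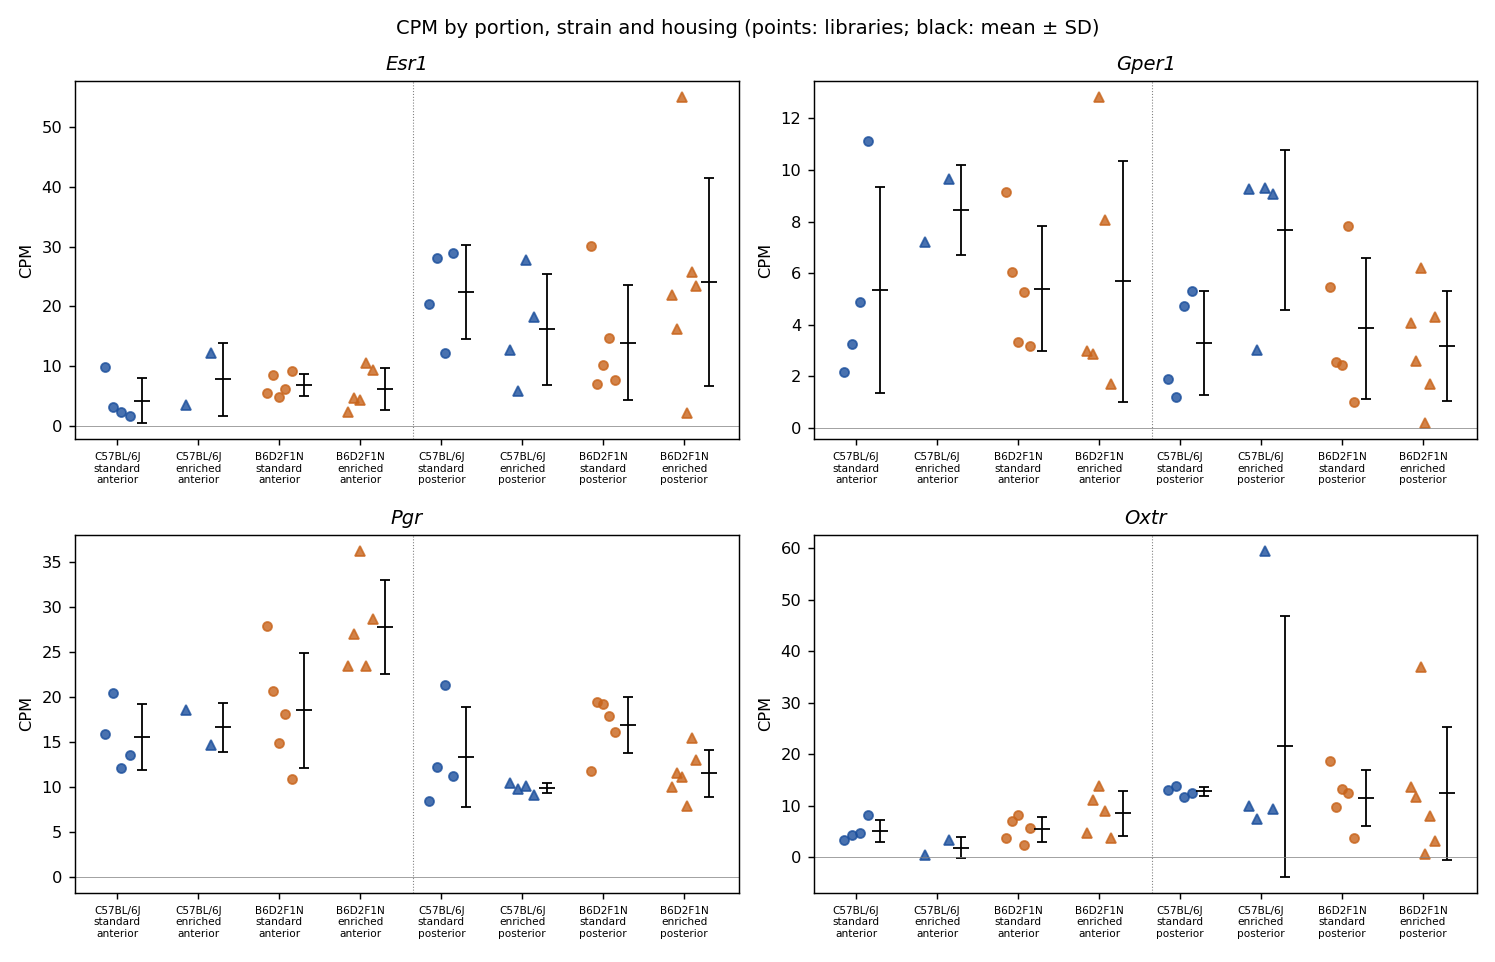
CPM (vertical axis) of Esr1, Gper1, Pgr and Oxtr in the 8 groups of portion, strain and housing, with points for libraries and a black mean and SD beside them. Within a portion the groups overlap for most genes, and enriched B6D2F1N anterior holds the highest Pgr libraries, up to 36.2 CPM.

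Across mice, Esr1 and Oxtr were related in posterior by Pearson's r, but not by rank after adjustment. In anterior no relation was detected, which does not show that there is none. Of 42 relations between the 7 genes within a portion, tested with 100000 permutations each on log2 CPM, Esr1 and Oxtr in posterior had Pearson's r = 0.733 over 19 mice (permutation p = 0.00058, adjusted 0.0244) and Spearman's rho = 0.653 (permutation p = 0.00312, adjusted 0.118). Without the 2 mice farthest from the median of Esr1, r was 0.514. Within strains r was 0.591 over 8 C57BL/6J and 0.774 over 11 B6D2F1N mice. In anterior the same relation had r = 0.003 and rho = -0.221 over 16 mice (permutation p = 0.992 and 0.413, adjusted 0.992 and 0.863). Whether the portions differ in it was not tested. Gper1 and Oxtr in posterior had r = 0.695 (permutation p = 0.00202, adjusted 0.0424) but rho = 0.379 (permutation p = 0.11, adjusted 0.621). Their r fell to 0.293 without the 2 farthest mice, so its size depends on them. It was 0.240 within C57BL/6J and 0.822 within B6D2F1N.

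**Figure D5:**
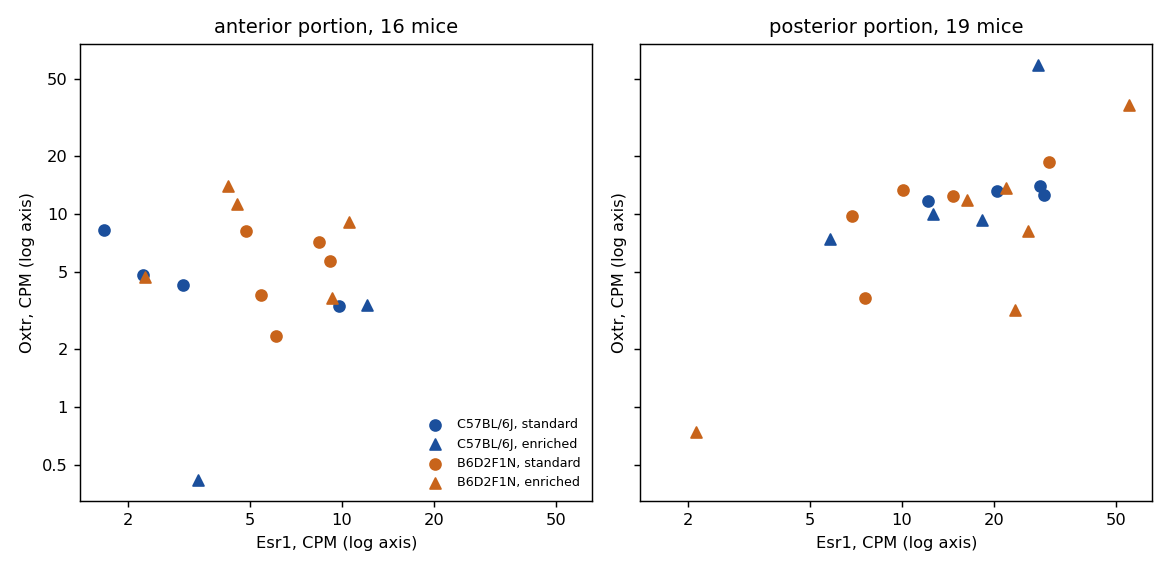
Oxtr against Esr1 CPM, both on log axes, in the 16 anterior and 19 posterior libraries, with color for strain and marker for housing. In posterior the points climb from B6D2F1N enriched mouse 4 at the lower left to 2 enriched mice at the upper right, and in anterior they form no line.

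The genes most like each of the 7 over all 35 libraries, among 16022 genes with a mean of at least 1 CPM, are given as a description, since the libraries share portions and mice. Esr1 was most like Trhr, the receptor of thyrotropin-releasing hormone (r = 0.748), Olig3 (r = 0.746) and Hap1 (r = 0.736). Oxtr was most like Nnat (r = 0.608), Esr1 (r = 0.591) and the sodium channel subunit Scnn1a (r = 0.581). Pgr was most like Satb1 (r = 0.772), Pacsin1 (r = 0.769) and Fut9 (r = 0.760). Gper1 was most like Mllt6 (r = 0.769), Chtf18 (r = 0.742) and Wscd2 (r = 0.721), and Avpr1a was most like Gpx3 (r = 0.721), Pgr15l (r = 0.700) and Sfxn5 (r = 0.685). Cyp19a1 was most like 3 predicted genes, Gm3227, Gm13868 and Gm44292 (r = 0.635, 0.613 and 0.611). Esr2 averaged under 1 CPM and was not compared.

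Of 12 textbook estrogen-responsive genes outside the 7, 10 could be tested in the C57BL/6J portions and 2 rose, with a median difference of 0.67 against 0.01 over all genes. Prlr, the prolactin receptor, rose from 4.14 ± 2.87 to 32.5 ± 16.6 CPM (SD, n = 6; difference 3.06 ± 0.433, adjusted p = 0.000311, edgeR). Ccnd1, which encodes cyclin D1, rose from 55.8 ± 12.8 to 89.5 ± 9.10 CPM (0.72 ± 0.170, adjusted p = 0.0211, edgeR). In B6D2F1N 1 of 10 rose, again Prlr, from 13.2 ± 10.9 to 82.8 ± 65.5 CPM (SD, n = 10; 2.81 ± 0.421, adjusted p = 0.000681, edgeR). Prlr is known to be abundant in choroid plexus, whose markers moved with portion as given above, and their part was not tested.

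Of 10 other sex-steroid and related receptors, 1 rose in C57BL/6J and 1 rose and 1 fell in B6D2F1N. The riser was Paqr6, a membrane progestin receptor, at 1.06 ± 0.265 in C57BL/6J (adjusted p = 0.0298, edgeR) and 0.87 ± 0.211 in B6D2F1N (adjusted p = 0.0221, edgeR). Paqr9 of the same family fell in B6D2F1N, from 116 ± 47.3 to 69.0 ± 19.3 CPM (SD, n = 10; -0.69 ± 0.150, adjusted p = 0.0115, edgeR). The medians over this list were -0.33 and 0.06, against 0.01 and 0.15 over all genes.

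Of the oxytocin and vasopressin system, 1 of 5 genes tested rose in C57BL/6J. This was Cd38, the enzyme known to take part in oxytocin release, from 9.82 ± 7.996 to 34.3 ± 15.0 CPM (SD, n = 6; 2.19 ± 0.323, adjusted p = 0.000453, edgeR). In B6D2F1N Cd38 went from 5.797 ± 5.56 to 17.2 ± 9.47 CPM and was not called (SD, n = 10; 1.87 ± 0.535, adjusted p = 0.0575, edgeR), and 0 of 6 genes of the list were. Of the genes that make and break down steroids 0 were called in either strain (20 and 19 tested), and of the coregulators and chaperones 0 were called (17 and 18 tested). Of the hypothalamic-pituitary-gonadal list 0 of 9 were called in C57BL/6J. In B6D2F1N 1 of 10 rose and 1 fell. Lhb, the beta subunit of luteinizing hormone, was at 0.135 ± 0.330 CPM in anterior and 2.08 ± 3.66 in posterior (SD, n = 10; 5.02 ± 1.01, adjusted p = 0.00750, edgeR). Its anterior level was near what 3 counts are worth and its posterior level was scattered, so the fitted value depends on the prior count. Inhba, a subunit of activin and inhibin, fell from 23.1 ± 24.7 to 6.18 ± 3.16 CPM (SD, n = 10; -1.64 ± 0.288, adjusted p = 0.00242, edgeR).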

How the data were processed

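RNA from laser-captured basolateral amygdala was sequenced as single reads of 72 bases, aligned to GRCm38 and counted per gene. The authors used bcl2fastq, FastQC 0.11.7, Trimmomatic 0.38, HISAT2 2.1.0, SAMtools 1.8 and HTSeq 0.11.2, per the labels. The deposited values are whole-number counts per gene, not normalized. The annotation release and strand setting are not given in the sources used here. Rows that name no gene were left out, of which reads with no feature were 13.7 to 26.4%. Gene names, coordinates and exonic lengths came from GENCODE M21, which held 52403 of 52636 IDs.

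Genes with at least 10 counts over the libraries of a comparison were tested with edgeR 4.0.16 (quasi-likelihood, TMM, R 4.3.3) and p-values were Benjamini-Hochberg adjusted over all genes tested at 0.05. The SE of each fitted difference was not estimated directly. It is the size of the log2 fold change divided by the square root of the test's F statistic. CPM used TMM library sizes, log2 CPM a prior count of 2. The fitted differences used the default prior count of edgeR's quasi-likelihood fit instead. Portions were compared with the mouse as a block, since libraries share an animal. The correlation of deviations from group means within mice had a median of 0.0481 (-0.105 to 0.222, 16 mice). Strain and housing were compared within each remaining pair of conditions, and p-values measure the spread between mice, some of which shared a cage. DESeq2 1.42.0, its size factors, filterByExpr, no minimum, other fits and leaving out each mouse were the alternatives. The fits were tested on simulated data. The fit over both strains was chosen after seeing the data. The 7 genes, the 6 pathway lists and the marker lists were chosen with earlier results of these data known. 1 gene of the lists is not reported here. Every one of the 7 genes is described, and the 3 genes most like each were taken by Pearson's r over 35 libraries. Plots were drawn with matplotlib 3.10.9.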

Additional observations from a re-analysis of the deposited data

Results flagged for a closer look

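Of 49 groups of 4 to 6 libraries examined for 1 value far from the others, 12 were marked. A chance rate of about 1 in 20 need not hold where most libraries are at 0, so 12 is not read as an excess. In some marked groups of Esr2, Cyp19a1 and Avpr1a only 1 library had counts. In C57BL/6J standard anterior, mouse 1 stood high for Esr1 (9.76 CPM) and for Avpr1a (0.908 CPM). In C57BL/6J enriched posterior, mouse 3 stood high for Oxtr (59.5 CPM), mouse 4 for Esr2 (0.968 CPM) and Cyp19a1 (6.24 CPM), and mouse 2 low for Gper1 (3.01 CPM). In B6D2F1N standard anterior, mouse 3 stood high for Avpr1a (9.99 CPM). In B6D2F1N enriched anterior, mouse 6 stood high for Esr2 (1.63 CPM), mouse 4 for Cyp19a1 (2.13 CPM) and mouse 1 for Avpr1a (0.506 CPM). In B6D2F1N enriched posterior, mouse 5 stood high for Cyp19a1 (13.0 CPM) and mouse 3 for Oxtr (36.9 CPM). No gene of the 7 was marked for a difference of effects between groups.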

How the results depend on the processing

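Both calls in the C57BL/6J portions, Esr1 and Oxtr, held under every alternative run (DESeq2, its size factors, another filter on low counts or none, no mouse block, unpaired libraries and leaving out each mouse). In B6D2F1N the number of the 7 genes called went from 0 to 2 (Esr1 and Pgr) without mouse as a block, to 2 with all libraries unpaired, and to between 0 and 2 without 1 mouse, and over both strains it lay between 1 and 3. Other alternatives called 0 of the 7 in the strain, housing and interaction comparisons. Avpr1a between the C57BL/6J portions changed sign without the block (-0.44) and ranged from -0.74 to 4.19 without 1 mouse, in B6D2F1N anterior its housing difference ranged from -8.48 to 0.0812, and its anterior strain-by-housing value from -12.21 to 0.91. The causes were not tested. Over all genes, comparisons and alternatives, 111 of 1729 fitted values of the 7 genes had the other sign, 0 of these at an adjusted p of at most 0.05. Counts of called genes over all genes depended on the tool. DESeq2 called 1535 and 1994 in the 2 portion comparisons against 937 and 1110 with edgeR, 254, 392, 137 and 342 for strain against 90, 94, 15 and 101, and 319 for housing in C57BL/6J posterior against 4. With a housing term over both housings the strain counts were 162 in anterior and 239 in posterior. With no minimum count 57 genes were called for strain in enriched anterior, where 1 fit over 4 groups called 44, and housing calls were 274 in C57BL/6J anterior and 112 in C57BL/6J posterior, where the fits over 4 groups and with a strain term called 0. Without 1 mouse the latter count ranged from 0 to 172. Esr2, Cyp19a1 and Avpr1a, with 9, 14 and 16 libraries at 0, are the genes that depth limits most.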

Other observations

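Over both strains, 5 genes of the pathway lists that were called in neither strain alone passed the test between portions, and they were chosen after their values were seen. Hsp90aa1, a chaperone that holds steroid receptors ready for hormone, went from 521 ± 67.7 to 408 ± 80.4 CPM in posterior (SD, n = 16; -0.35 ± 0.0886, adjusted p = 0.0106, edgeR). Hsd17b7, an enzyme of steroid and cholesterol synthesis, went from 35.4 ± 9.60 to 24.5 ± 5.42 CPM (-0.50 ± 0.146, adjusted p = 0.0282, edgeR). Tac2, which encodes neurokinin B, went from 9.90 ± 5.63 to 4.52 ± 1.59 CPM (-1.02 ± 0.241, adjusted p = 0.00598, edgeR). Pgrmc2, a membrane-associated progesterone-binding protein, went from 57.1 ± 12.9 to 45.4 ± 10.7 CPM (-0.32 ± 0.101, adjusted p = 0.0460, edgeR). The fifth, Oxt, the oxytocin gene itself, was low and scattered at 2.34 ± 4.87 and 0.102 ± 0.159 CPM, and its fitted difference of -3.95 ± 1.10 (adjusted p = 0.0219, edgeR) depends on the prior count.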
